A study of Mus musculus with 208 samples.

Results

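The response to lipopolysaccharide (LPS) of prefrontal cortical neurons was examined in adult mice that had received saline, not morphine, around birth. RNA had been counted in 48 prefrontal cortex (PFC) libraries, and 19 of the 20 libraries from saline-exposed mice were used, 9 from mice given LPS (SAL-LPS) and 10 from mice given saline (SAL-SAL), out of 208 RNA samples in the series. A library was left out where its total count was under 0.5 of the median total of all 48, which removed 1 SAL-LPS library (female 4-4, 4107879 counts against a limit of 4833814) and no SAL-SAL library. Of the 46403 genes listed, 14028 reached a mean of at least 1 CPM, a count scaled to its library's total, over the 19 libraries, and those are the genes described. A gene can reach that mean through 1 group alone and then had to differ, as with Saa3 (means of 0.0432 in SAL-SAL and 4.66 in SAL-LPS normalized CPM), Gm21984 (3.68 and 0.0427) and Siglech (6.07 and 0).

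All mice were wild-type C57BL/6NTac. The dams of both groups had carried minipumps with saline, the pups had been raised by drug-naive surrogate dams with saline injections after birth, and in adulthood the mice received LPS at 2 mg/kg or saline intraperitoneally 2 h before collection. By the labels each library was made from about 5000 nuclei of 1 mouse, taken from bilateral PFC punches and sorted for NeuN, a nuclear protein of most mature neurons. The SAL-SAL group held 6 females and 4 males and the SAL-LPS group 5 females and 4 males, and a library is named here by sex and the replicate number of its label (male 1-0). The study's supplement gives the format of that number as litter and animal, by which each group came from 6 litters, but the litter counts given elsewhere in the study differ, and the number before the dash is called a litter here on that format alone. LPS is a cell wall component of Gram-negative bacteria that activates Toll-like receptor 4, mainly on immune, glial and vascular cells. Injected into the body, it drives the release of cytokines and of glucocorticoids, which can act on cortical neurons through their own receptors, and the animals become inactive. Nuclear RNA of neurons can follow within hours through NF-kB, interferon and glucocorticoid target genes and through the immediate early genes, which track recent activity.

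The libraries were first set against markers of the labelled region and cell type. In 4 of the 19 libraries, SAL-SAL female 4-1, SAL-SAL male 5-1, SAL-LPS male 1-0 and SAL-LPS male 3-3, Slc17a7, the vesicular glutamate transporter of cortical excitatory neurons, was at 0.376 to 0.881 CPM, against 54.8 to 517 CPM in the other 15. The cortical transcription factors Tbr1 and Fezf2 were at 0 in these 4, and Neurod6 was at 0 in 3 of them and at 0.188 CPM in 1. Drd2, the dopamine receptor of indirect-pathway striatal neurons, was at 203 to 443 CPM in these 4 and had a median of 124 CPM in the other 15, whose range was 32.5 to 335. For comparison, the saline-exposed striatal libraries had medians of 6.13 CPM for Slc17a7 and 209 for Drd2, and the hippocampal ones 110.3 and 6.57. The 15 thus also held striatal markers at higher medians than hippocampus, 34.0 against 0.220 CPM for Adora2a and 29.9 against 2.68 for Drd1, and in 4 of them, SAL-SAL females 4-3 and 9-0, SAL-LPS female 4-0 and SAL-LPS male 11-0, Drd2 at 254 to 335 CPM was above that of the low library male 1-0. Beyond the fit with striatal markers as a covariate, given below, the part of striatal RNA in the results was not tested. The sum of the 12 listed for cortical excitatory neurons, which also holds genes that striatal neurons express such as Camk2a, Bcl11b and Foxp2, was at 1645 to 4255 normalized CPM in SAL-SAL and 1332 to 3014 in SAL-LPS and did not set them apart: SAL-SAL male 5-1 had the highest sum of the 19, SAL-LPS male 1-0 the lowest. By Slc17a7, Tbr1, Fezf2 and Neurod6, chosen for this check after the data were seen, these 4 libraries go against the PFC label. They are 2 of 10 SAL-SAL and 2 of 9 SAL-LPS libraries, a further 4 of the 26 morphine-exposed PFC libraries were like them, and results below are given with all libraries and, where they bear on a call, without the 8.

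Depth, ribosomal RNA and glial RNA also differed between libraries. Total counts were 6605680 to 13784531 in SAL-SAL and 4866542 to 14618761 in SAL-LPS. Rn18s-rs5, a ribosomal RNA-related gene, took over 10% of the counts in SAL-SAL female 10-3, SAL-SAL male 5-1 and SAL-LPS male 3-3, with group medians of 3.59% and 0.933%. Mitochondrial genes had medians of 0.206% in SAL-SAL and 0.0769% in SAL-LPS, and the noncoding Gm26917 took 3.13% to 7.21% of counts in SAL-SAL and 1.56% to 5.32% in SAL-LPS, and the part of these in the results below was not tested. SAL-SAL female 9-4 had the highest summed glial markers of its group, 5183 normalized CPM over 10 oligodendrocyte genes against at most 829 in the rest of SAL-SAL and 1152 in SAL-LPS, and 294 over 10 microglial genes against at most 57.9 and 110. SAL-SAL males 1-3 and 3-0, of different litters by their numbers, were closer to each other than any other pair of the 19 (correlation of log counts 0.989, median over 171 pairs 0.810), with a chi-square per degree of freedom between their counts of 3.42, against 26.9 for the next closest pair and a median of 141.5. That exceeds counting noise, which libraries of the same animal can exceed too, so whether they are separate mice is not settled by the counts. Both were kept as labelled, and 0 genes were called with them summed or left out. Neuronal markers (Rbfox3, Snap25, Syt1 and others) were high in every library, summing to 3687 to 9094 summed normalized CPM in SAL-SAL and 3688 to 9276 in SAL-LPS, while Nefl and Tubb3 were at 0 throughout, as were the glial markers Gfap and P2ry12. Such zeros give no level: of 46403 genes 17882 were at 0 in all 157 PFC, hippocampal and striatal libraries, and 4419 of those, these 4 among them, had counts in at least 26 of the 51 hypothalamic libraries of the series, which held Nefl at a median of 71.95 and Tubb3 at 211 CPM. Whether such genes were counted in the other 3 regions is not given in the sources used here. In such pooled nuclei, fewer nuclei of a type and less RNA per nucleus cannot be told apart.

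With all 19 libraries, no gene passed the test at an adjusted p under 0.05 (0 of 21656 tested, 0%, edgeR's quasi-likelihood test with Benjamini-Hochberg adjustment, smallest adjusted p 0.0585). Among the 14028 described genes, 813 had an unadjusted p under 0.05 (5.80%), 479 higher (3.41%) and 334 lower (2.38%) after LPS, and those shares are the background for every list below. The balance of directions depended on the fit: 58.9% of the 813 were higher, against 78.2% of 1003 with scaling by library size only, which moved the median log2 fold change of all described genes to 0.14, and 39.2% of 724 with litter as a replicate block. No described gene separated the groups without overlap (0%). The median log2 fold change was 0.02, and the 95% interval of a gene's log2 fold change reached 0.90 to either side at the median, and 5046 of the described genes had an interval within 1 log2 unit of no difference.

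Without the libraries low in Slc17a7, a comparison chosen after the data were seen, 4 of 21310 genes passed: Cdk5rap3, Srsf6 and Sf3b1 rose and Gm21984 fell, each with an adjusted p of 0.0151. With all libraries and the summed striatal markers as a covariate, 4 of 21656 passed, of which Cdk5rap3, Phka2 and Gm21984 are among the genes named below. The fourth was Cacnb2, a calcium channel beta subunit named after its value was seen, with a log2 fold change of 0.95 (adjusted p = 0.0249). DESeq2 on all libraries called 54 genes, 35 of them described (0.250%), including all 12 ranked by p below, and edgeR's bias-adjusted fit called 15 (0.107%). Leaving out SAL-SAL 4-1, 9-0 or 5-1 or SAL-LPS 9-1 gave 2, 1, 1 and 2 calls, all among the 12, and leaving out any of the other 15 gave 0. Sets of calls thus differed between fits. Of the 12 genes 6, among them Cdk5rap3, Phka2, Srsf6, Gm21984 and Siglech, were called by DESeq2, by the bias-adjusted fit and by a joint fit over 3 regions described further on. These use the same libraries from which the 12 were picked by p, and they are among the fits with the most calls. A limma-voom fit called Gm21984 alone, and the joint fit with a spread for each region called only Gm21984 and Sdc3 of the 12.

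**Figure D1:**
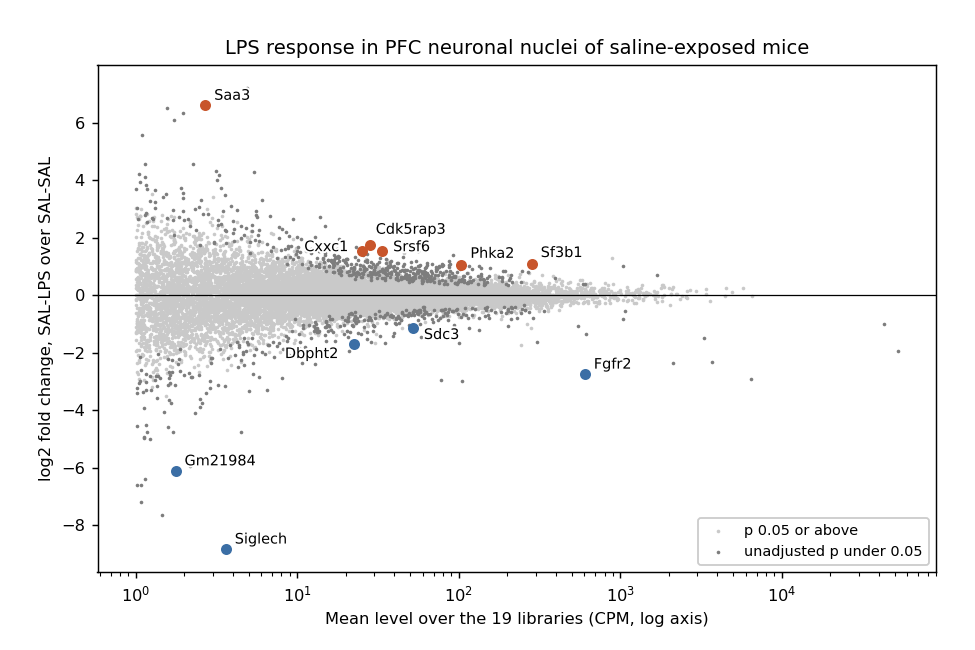
Each point is 1 of the 14028 described genes, with its mean level over the 19 libraries in CPM on a log axis and its log2 fold change of SAL-LPS over SAL-SAL on the vertical axis. The 11 genes named by rank are in orange (higher) and blue (lower). The spread of fold changes is widest at a few CPM and narrows with level. Siglech, at 0 in every SAL-LPS library, is drawn at its fitted value.

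The 6 genes with the smallest p among those higher after LPS are described first, in normalized CPM per library. None passed the adjusted threshold in edgeR with all libraries, while DESeq2 called all 6. Cdk5rap3 (chromosome 11 from 96907426 to 96916496 on the minus strand) encodes an adaptor of UFMylation, which attaches a ubiquitin-like protein to ribosomes and membrane proteins at the endoplasmic reticulum. It ran from 3.94 to 19.5 (median 12.8) in SAL-SAL and from 17.3 to 91.5 (median 41.6) in SAL-LPS. All 9 SAL-LPS libraries lay above the SAL-SAL median and 8 above the highest SAL-SAL library. The log2 fold change was 1.76 (SE 0.35, adjusted p = 0.0784), and 1.81 (adjusted p = 0.0151) without the libraries low in Slc17a7.

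Srsf6 and Sf3b1, both splicing factors, are given next, and Phka2, which had a smaller p than either, after them. Srsf6 (chromosome 2 from 162931528 to 162937121 on the plus strand) encodes a serine- and arginine-rich protein that guides splice site choice. Its level ran from 10.4 to 26.2 (median 15.2) in SAL-SAL and from 21.0 to 134 (median 32.2) in SAL-LPS, with 8 of 9 SAL-LPS libraries above every SAL-SAL library and the exception, male 3-3, one of the 4 low in Slc17a7. Female 10-0 (134) and male 1-4 (88.8) were the highest, and the difference was 1.53 (SE 0.33, adjusted p = 0.116), or 1.81 (adjusted p = 0.0151) without the low libraries. Sf3b1 (chromosome 1 from 54985169 to 55027481 on the minus strand) encodes the core subunit of the U2 snRNP that recognises the branch point of introns. It ran from 84.7 to 406 (median 162) in SAL-SAL and from 213 to 615 (median 325) in SAL-LPS. The highest SAL-SAL value, 406, was that of female 4-1, which is low in Slc17a7, and the next was 216. Its log2 fold change was 1.07 (SE 0.25, adjusted p = 0.133) with all libraries and 1.15 (adjusted p = 0.0151) without the low ones.

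Phka2 (chromosome X from 160502166 to 160598878 on the plus strand) encodes a regulatory subunit of phosphorylase kinase, which switches on glycogen breakdown. Levels ran from 38.7 to 91.5 (median 71.0) in SAL-SAL and from 64.4 to 231 (median 148) in SAL-LPS, and 7 SAL-LPS libraries exceeded the highest SAL-SAL one. The difference of 1.04 (SE 0.23, adjusted p = 0.116) was 1.06 (adjusted p = 0.0736) without the low libraries, and both SAL-SAL libraries among those gave the lowest values of all, 39.7 and 38.7. Cxxc1 encodes the CpG-binding subunit of the Setd1 complexes that place trimethyl marks on H3K4 at active promoters. It ran from 4.41 to 23.8 (median 10.4) in SAL-SAL and from 14.2 to 117 (median 33.3) in SAL-LPS, with all 9 SAL-LPS libraries above the SAL-SAL median, 6 above the highest SAL-SAL library and male 1-4 alone at 117. Its log2 fold change was 1.53 (SE 0.36, adjusted p = 0.151), and 1.63 (adjusted p = 0.155) without the low libraries, 0.96 in females alone and 2.48 in males alone.

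Saa3 (chromosome 7 from 46711998 to 46715700 on the minus strand) encodes serum amyloid A 3, an acute-phase protein made outside the liver, and was near 0 without LPS. Over the 10 SAL-SAL libraries it had 3 counts in all, in 3 libraries, and over the 9 SAL-LPS libraries 413 counts in 7. Relative to total counts that is a ratio of 158 (95% exact interval 53.8 to 771, counting error only), and 64.2 without male 1-0, which held 263 of the 413. The SAL-LPS libraries were uneven, with 21.8 normalized CPM in male 1-0, 11.6 in female 10-0, 3.32 in male 1-4 and 0 in females 4-0 and 9-3. The adjusted p was 0.141 with all libraries and 0.245 without those low in Slc17a7, among them the highest, male 1-0. Lcn2 (chromosome 2 from 32384633 to 32388252 on the minus strand), which encodes the iron-scavenging acute-phase protein lipocalin-2, was named after its values were seen and averaged 0.879 CPM, below the level set for description. It was at 0 in all 10 SAL-SAL libraries and had 144 counts in 6 of 9 SAL-LPS libraries, at least 55.2-fold higher against a floor of 3 counts over the group (adjusted p = 0.117, and 0.245 without the low libraries). Without male 1-0, which held 85 of the 144, the bound was 25.3-fold. Of 41 alternative fits 2 called Lcn2, DESeq2 and limma-voom with library weights. Its highest values, 7.05 and 5.19 normalized CPM, were in males 1-0 and 3-3, both low in Slc17a7, followed by 1.91 in female 4-0. Both genes are known from activated glia and vessels more than from neurons. The summed markers of endothelium were at 12.7 to 34.3 normalized CPM in SAL-SAL and 0.566 to 56.1 in SAL-LPS, and those of astrocytes at 156 to 1131 and 214 to 632. As edgeR called 0 of 21656 genes with all libraries, calls could not single out a cell type. Of 9 described astrocyte markers, 1 was higher (Aldoc, log2 fold change 1.53) and 1 lower (Sox9, -1.74) at an unadjusted p under 0.05. That compares with 3.41% and 2.38% of all described genes. Of 8 described microglial and 3 choroid plexus markers, 0 were at such a p, nor was Tek, the 1 described endothelial marker, which averaged 20.6 CPM. Microglial sums in SAL-LPS were highest in male 1-0 (110) and otherwise at 19.8 to 80.0, and choroid plexus sums were highest in male 3-3 (87.4), against 14.4 to 294 and 6.42 to 57.8 in SAL-SAL. The part of these cell types in the values of Saa3 and Lcn2 was not tested.

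**Figure D2:**
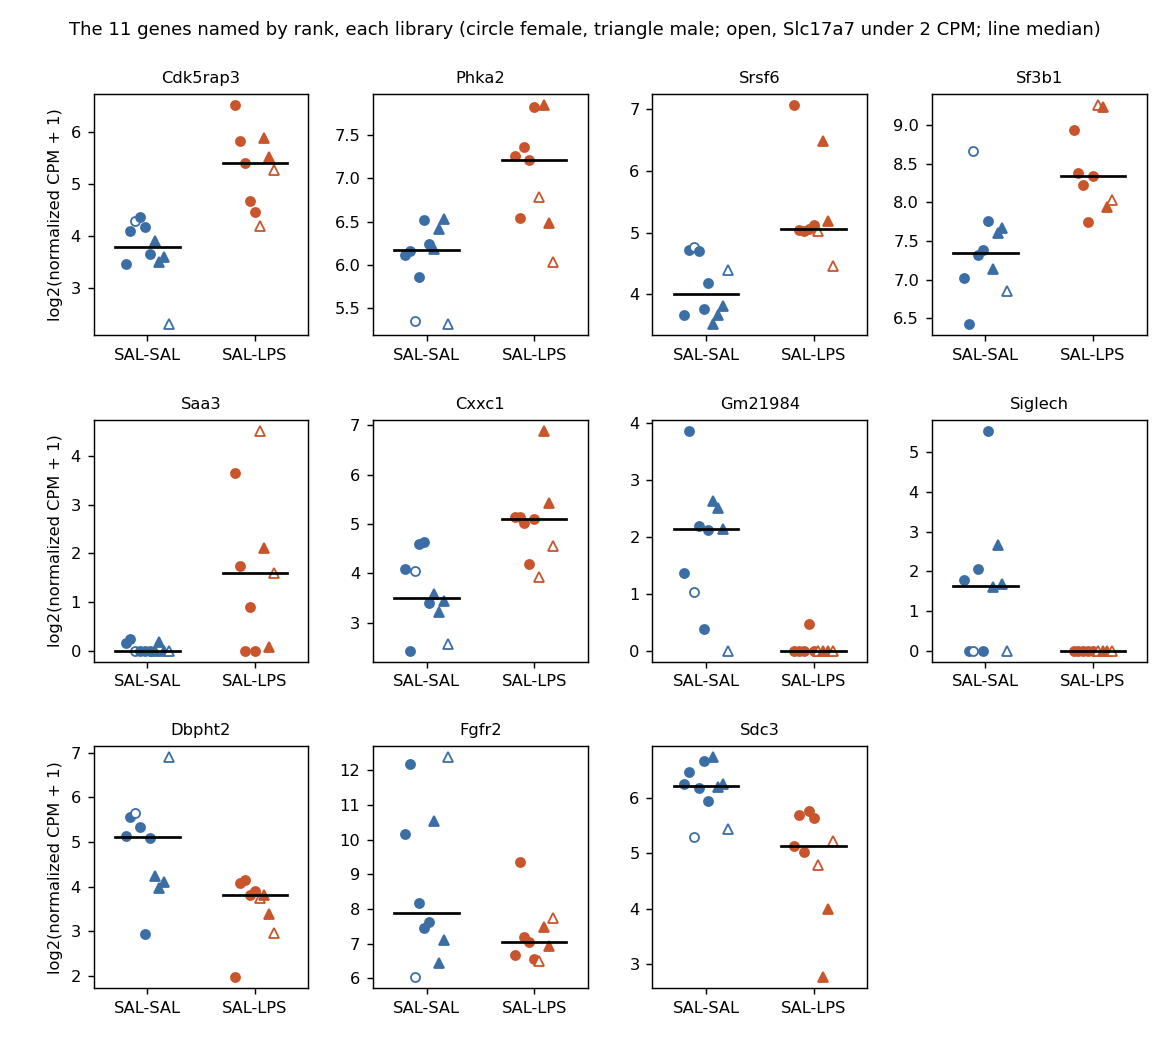
Each panel shows 1 of the 11 genes named by rank, with log2(normalized CPM + 1) per library on the vertical axis, SAL-SAL in blue and SAL-LPS in orange, circles for females, triangles for males, open symbols for the 4 libraries with Slc17a7 under 2 CPM and a line at the median. The axes do not all start at 0. SAL-LPS libraries sit mostly above SAL-SAL in the first 6 panels and mostly below in the last 5, and the groups overlap in every panel.

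Of the 6 genes with the smallest p among those lower after LPS, 5 are described, beginning with Gm21984 (chromosome 7 from 126942144 to 126952873 on the plus strand), annotated as a processed transcript that shares exons with Kctd13 and Sez6l2 on the same strand, so its counts are uncertain. It had 319 counts in 9 of 10 SAL-SAL libraries and 4 counts, all in female 9-1, over the 9 SAL-LPS libraries. That is a ratio of 69.4 (95% exact interval 26.8 to 256, counting error only) in favour of SAL-SAL. In normalized CPM the levels ran from 0 to 13.6 (median 3.41) in SAL-SAL and from 0 to 0.385 (median 0) in SAL-LPS. The log2 fold change was -6.11 (SE 1.17, adjusted p = 0.0585), the smallest p of all genes tested, and -6.12 (adjusted p = 0.0151) without the low libraries. It was also the gene called most often under the alternatives, in 14 of 42.

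Siglech (chromosome 7 from 55768178 to 55778925 on the plus strand) encodes a sialic acid-binding lectin of microglia and plasmacytoid dendritic cells. It was at 0 in all 9 SAL-LPS libraries and in 4 of 10 SAL-SAL libraries, with 653 counts over the SAL-SAL group, at least 189-fold lower after LPS against a floor of 3 counts over the group (adjusted p = 0.116). Without female 9-4, which held 499 of those counts, the bound was 49.2-fold. Female 9-4, the SAL-SAL library with the most microglial and oligodendrocyte RNA, held 45.6 normalized CPM and the 5 others above 0 held 2.04 to 5.35. The 8 described microglial markers had a median log2 fold change of 0.02 with all libraries, where 0 had an unadjusted p under 0.05, and 0.85 without female 9-4. P2ry12, among the genes whose zeros give no level, was at 0. The part of microglia in the Siglech values was not tested.

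Dbpht2 (chromosome 12 from 74296668 to 74302008 on the plus strand), a long intergenic noncoding RNA, ran from 6.68 to 118 (median 33.6) in SAL-SAL and from 2.93 to 16.8 (median 13.0) in SAL-LPS. The highest value, 118, came from male 5-1, which is low in Slc17a7 and rich in Rn18s-rs5, and female 9-0 at 6.68 was the only SAL-SAL library below the SAL-LPS median. The log2 fold change was -1.69 (SE 0.37, adjusted p = 0.116), and -1.09 (adjusted p = 0.245) without the low libraries. Fgfr2 (chromosome 7 from 130162451 to 133123350 on the minus strand) encodes a receptor for fibroblast growth factors, and the annotated interval shares exons with Ctbp2, so its counts are uncertain. It ran from 64.8 to 5333 (median 241) in SAL-SAL and from 90.1 to 649.8 (median 132) in SAL-LPS, with SAL-SAL split between libraries at 1145 or above (male 5-1, female 10-3, male 1-1 and female 10-1) and the rest at 287 or below. The difference of -2.74 (SE 0.64, adjusted p = 0.141) came with those 4 libraries above all SAL-LPS libraries, male 5-1 and female 10-3 among them being rich in Rn18s-rs5, and it was -2.34 (adjusted p = 0.245) without the libraries low in Slc17a7. With library weights in limma-voom Fgfr2 gave -0.73 (adjusted p = 0.683) and Dbpht2 -0.94 (adjusted p = 0.237).

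Sdc3 (chromosome 4 from 130792537 to 130826319 on the plus strand) encodes syndecan-3, a heparan sulfate proteoglycan of axons. It ran from 38.2 to 105 (median 73.6) in SAL-SAL and from 5.83 to 53.5 (median 34.2) in SAL-LPS, and 9 of 9 SAL-LPS libraries were below the SAL-SAL median. The lowest was male 1-4 at 5.83, and the log2 fold change was -1.15 (SE 0.28, adjusted p = 0.151) with all libraries and -1.27 (adjusted p = 0.197) without the low ones, -0.73 in females alone and -1.82 in males alone. Exons of Cdk5rap3, Phka2 and Sdc3 overlap genes of the opposite strand, and reads of those could not be told apart if strand was not used in counting.

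Gene lists fixed by function were then read against the background above, 3.41% of described genes higher and 2.38% lower at an unadjusted p under 0.05 and a median log2 fold change of 0.02. In each of the 13 lists, 0 members passed the adjusted threshold in edgeR with all libraries, where 0 of 21656 genes did. Among alternatives, the joint fit over 3 regions called Pfkm. DESeq2 and limma-voom with library weights called Lcn2, a glucocorticoid response member below the level set for description. The NF-kB and acute inflammation list, the direct program of Toll-like receptor signalling, had 17 of 31 members at 1 CPM or more, and the median log2 fold change of those was 0.07 (-0.14 without the libraries low in Slc17a7). Ccl2, Cxcl1, Cxcl10, Tnf and Myd88 were listed at 0 in all 19 libraries. Of these Myd88, Ccl2 and Cxcl10 were at 0 in all libraries of the 3 regions and had counts in 44, 6 and 7 of 51 hypothalamic ones, so their zeros give no level, while Cxcl1 and Tnf had counts in 3 and 5 other PFC libraries. Il6 was seen in 1 SAL-SAL library and Il1b in 2 SAL-SAL and 1 SAL-LPS library. Tlr4, the LPS receptor itself, was seen in 7 SAL-SAL and 1 SAL-LPS library at a mean of 0.968 CPM, below the level set for description (adjusted p = 0.170). The 3 members with the highest CPM were Nfkb1, the p105 and p50 subunit of NF-kB, Sbno2, a corepressor in interleukin-10 signalling, and Stat3, which relays interleukin-6 signals. Their log2 fold changes were 0.15 (95% interval -0.27 to 0.57), 0.07 (95% interval -0.46 to 0.59) and -0.08 (95% interval -0.73 to 0.58). With library weights in limma-voom the median was -0.59. Ptgs2, the inducible cyclooxygenase, had the lowest log2 fold change of the described members, -1.64 (95% interval -4.42 to 1.15). Of the 17 described members 1 had an unadjusted p under 0.05, Cebpb, an acute-phase transcription factor that ran from 0 to 1.70 (median 0.0390) in SAL-SAL and from 0 to 17.3 (median 1.39) in SAL-LPS (log2 fold change 2.95, SE 1.305, adjusted p = 0.305). It reached 1 CPM through SAL-LPS, with means of 0.347 and 3.06, and without male 1-4, its highest library, the log2 fold change was 1.87 (adjusted p = 0.705).

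Of 27 interferon-stimulated and antigen-presentation genes 9 were listed at 1 CPM or more, and 0 had an unadjusted p under 0.05. B2m, Igtp and Oas1a were listed at 0, and B2m was at 0 in all libraries of the 3 regions with counts in 46 of 51 hypothalamic ones, so its 0 gives no level. The 9 had a median log2 fold change of 0.23, and their 95% intervals reached 2.10 to either side at the median, none within 1 log2 unit of no difference. Stat2 and Irf9, parts of the interferon-activated factor ISGF3, had medians of 22.7 in SAL-SAL and 14.8 in SAL-LPS and of 5.00 in SAL-SAL and 4.92 in SAL-LPS normalized CPM, and the class I molecule H2-D1 of 4.07 in SAL-SAL and 10.5 in SAL-LPS, with log2 fold changes of -0.48 (95% interval -1.06 to 0.09), 0.23 (95% interval -1.27 to 1.74) and 1.16 (95% interval -0.39 to 2.72). Receptors through which cytokines could reach neurons were better represented, with 16 of 18 described and a median log2 fold change of -0.01. Il1rap, the shared co-receptor of the interleukin-1 family, Lifr, the leukemia inhibitory factor receptor, and Ifnar1, a chain of the type I interferon receptor, gave -0.12 (95% interval -0.93 to 0.69), 0.28 (95% interval -0.48 to 1.05) and -0.08 (95% interval -0.81 to 0.66). Il1r1, the signalling receptor of interleukin-1, ran from 0 to 3.58 (median 1.17) in SAL-SAL and from 0 to 65.1 (median 3.27) in SAL-LPS (log2 fold change 2.79, SE 0.97, adjusted p = 0.191). The highest value was that of male 1-4, and the log2 fold change was 1.33 (adjusted p = 0.709) without it and 3.44 (adjusted p = 0.245) without the low libraries. In the other direction Il17ra, the interleukin-17 receptor, was at 22.0 in SAL-SAL and 8.12 in SAL-LPS median normalized CPM (log2 fold change -1.51, SE 0.73, adjusted p = 0.373). Those 2 of 16 were the members with an unadjusted p under 0.05, 6.25% in each direction.

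Of the glucocorticoid-induced genes, 22 of 24 were described. The median log2 fold change was 0.40, 16 were higher and 6 lower, 2 had an unadjusted p under 0.05, both higher (9.09%), and the median was 0.34 without the libraries low in Slc17a7, 0.08 in females alone and 0.47 in males alone. Those 2 were Ddit4, an inhibitor of mTORC1, running from 0 to 16.3 (median 2.36) in SAL-SAL and from 0.535 to 56.5 (median 5.04) in SAL-LPS (log2 fold change 1.94, SE 0.75, adjusted p = 0.233), and Cdkn1a, the cell cycle inhibitor p21, running from 0 to 15.8 (median 8.74) in SAL-SAL and from 1.36 to 82.9 (median 21.2) in SAL-LPS (log2 fold change 1.59, SE 0.71, adjusted p = 0.309). The groups overlapped for both, and without SAL-LPS female 10-0 Ddit4 gave 1.25 (adjusted p = 0.624). Among the 3 members highest in CPM, Zbtb16, a zinc finger repressor, gave 0.43 (95% interval -0.38 to 1.23), the clock gene Per1 0.21 (95% interval -0.23 to 0.65) and Sgk1, the serum- and glucocorticoid-regulated kinase, -0.01 (95% interval -0.60 to 0.57). Fkbp5, which encodes a chaperone that damps the receptor, gave 0.21 (95% interval -0.34 to 0.77), and Tsc22d3, an anti-inflammatory leucine zipper gene, 0.95 (95% interval -0.24 to 2.14). For the receptor pathway itself, 8 of 9 described members had 95% intervals within 1 log2 unit of no difference and 0 with an unadjusted p under 0.05. Nr3c1, the glucocorticoid receptor, gave -0.20 (95% interval -0.70 to 0.29), and the chaperones Hsp90ab1 and Hsp90aa1 and the coactivator Ncoa2 gave -0.22 (95% interval -0.90 to 0.45), -0.44 (95% interval -1.08 to 0.20) and 0.02 (95% interval -0.31 to 0.35).

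Immediate early genes, which synaptic activity induces within minutes, lay toward lower values. Of 25 described among 28, 16 were lower and 9 higher, 4 had an unadjusted p under 0.05, all lower (16%), and the median log2 fold change was -0.39, or -0.44 without the libraries low in Slc17a7. Over 42 alternative fits the median stayed below 0, between -0.61 and -0.12, the latter in females alone. Arc (chromosome 15 from 74669083 to 74672570 on the minus strand), which regulates AMPA receptor traffic, ran from 64.5 to 288 (median 117) in SAL-SAL and from 25.7 to 155 (median 56.2) in SAL-LPS (log2 fold change -1.14, SE 0.36, adjusted p = 0.170). Without the low libraries the log2 fold change was -1.19 (adjusted p = 0.245). Egr1, a zinc finger transcription factor, ran from 94.7 to 530.2 (median 209) in SAL-SAL and from 65.8 to 254 (median 111) in SAL-LPS (log2 fold change -1.07, SE 0.34, adjusted p = 0.175). Without the low libraries the log2 fold change was -1.26 (adjusted p = 0.245). The closely matched males 1-3 and 3-0 were the highest SAL-SAL libraries for Egr1 and Homer1 and among the 3 highest for Arc. Without both, the log2 fold changes were -0.69 for Egr1, -0.43 for Homer1 and -0.91 for Arc (adjusted p = 0.434, 0.468 and 0.303), and the list median was -0.16. Homer1 (chromosome 13 from 93299635 to 93405129 on the plus strand), a postsynaptic scaffold with an activity-induced short form that gene counts do not separate, ran from 205 to 478 (median 271) in SAL-SAL and from 88.9 to 290.1 (median 214) in SAL-LPS (log2 fold change -0.63, SE 0.22, adjusted p = 0.191). Nr4a3, an orphan nuclear receptor, was at 109 in SAL-SAL and 74.7 in SAL-LPS median normalized CPM (log2 fold change -0.88, SE 0.43, adjusted p = 0.386), with SAL-LPS males 1-0 and 1-4 at 2.90 and 2.59. The related Nr4a1 gave -0.39 (95% interval -1.001 to 0.23), Fos, the usual marker of recent activity, -1.01 (95% interval -2.47 to 0.45), and the activity-dependent factor Npas4 -0.002 (95% interval -0.77 to 0.77). Among the 9 higher members, Junb gave 0.84 (95% interval -0.19 to 1.87), Fosb 0.80 (-0.79 to 2.40) and Scg2 0.60 (-0.53 to 1.73). In a model with a response for each sex, Arc, Egr1 and Homer1 gave -0.71, -0.84 and -0.34 in females. In males they gave -1.68, -1.33 and -1.03, with no difference between sexes called.

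ERK and MAPK feedback inhibitors, a readout of growth factor and activity signalling, had a median of -0.40 over 11 of 12 members (-0.34 without the low libraries), 8 lower and 3 higher, with 0 at an unadjusted p under 0.05. Across the 42 alternatives that median ran from -0.64 to -0.06, the latter without the closely matched SAL-SAL males 1-3 and 3-0. Spred2, Spred1 and Spred3, which block Ras activation of Raf, gave -0.40 (95% interval -0.86 to 0.06), -0.46 (95% interval -0.99 to 0.08) and 0.02 (95% interval -0.56 to 0.59). The medians of both lists describe genes of the same libraries and carry no test.

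**Figure D3:**
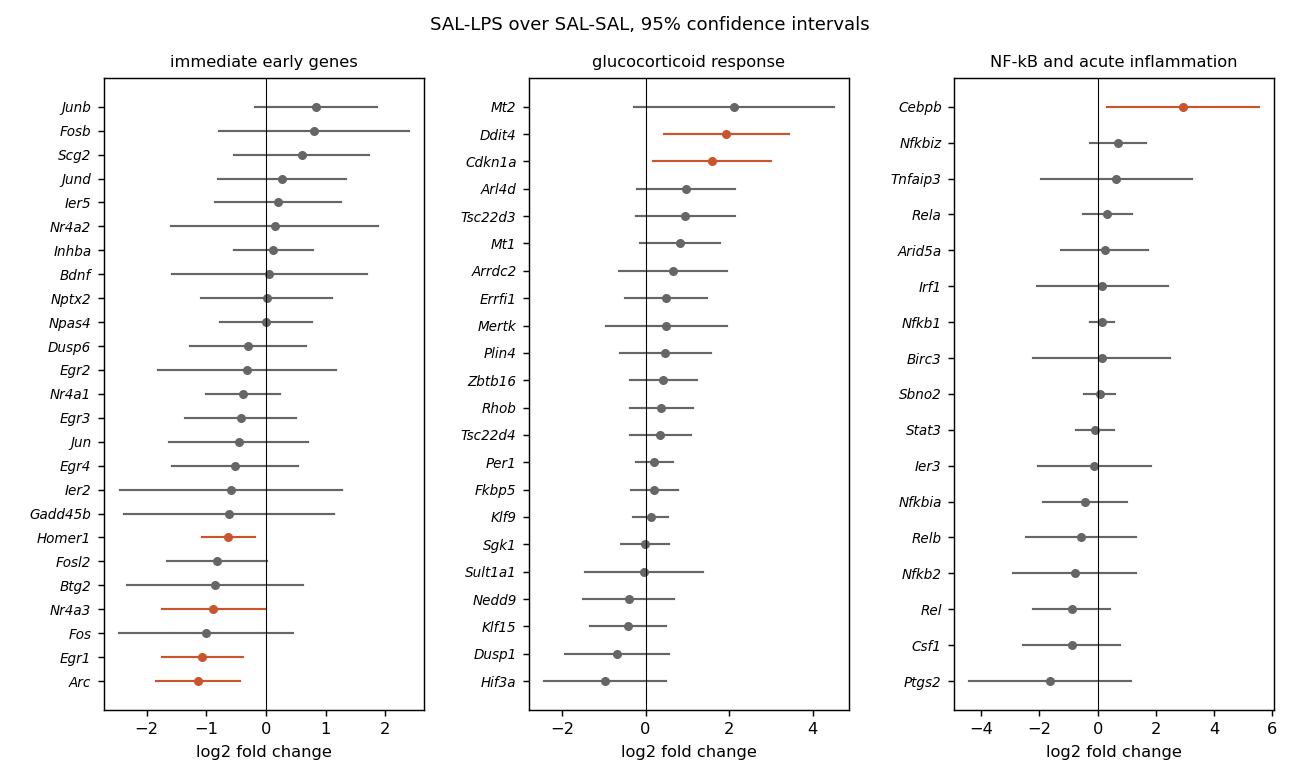
Log2 fold changes of SAL-LPS over SAL-SAL with 95% intervals on the horizontal axis for the described members of the immediate early, glucocorticoid response and NF-kB lists, ordered by value. Orange marks an unadjusted p under 0.05 and grey the rest. The 4 orange immediate early genes lie below 0, the 2 orange glucocorticoid genes above, and most intervals cross 0.

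Genes of fuel use and hypoxia had a median log2 fold change of 0.24 over 17 of 20 members, 13 higher and 4 lower, and 3 of 17 (17.6%) had an unadjusted p under 0.05, all higher. Pfkm (chromosome 15 from 98092589 to 98132451 on the plus strand), the muscle-type phosphofructokinase that commits glucose to glycolysis, ran from 48.6 to 184 (median 132) in SAL-SAL and from 136 to 636 (median 198) in SAL-LPS (log2 fold change 0.84, SE 0.23, adjusted p = 0.151). Without the low libraries the log2 fold change was 0.83 (adjusted p = 0.245). Its exons overlap Gm26513 on the same strand and Senp1 on the opposite strand, so its counts are uncertain. Male 1-4 stood alone at the top and SAL-SAL male 5-1 alone at the bottom. Pdk2, a kinase that inhibits pyruvate dehydrogenase, was at 32.96 in SAL-SAL and 40.0 in SAL-LPS median normalized CPM (log2 fold change 0.86, SE 0.35, adjusted p = 0.251), and Ppargc1a, the coactivator of mitochondrial biogenesis, at 62.9 in SAL-SAL and 85.9 in SAL-LPS (log2 fold change 0.61, SE 0.30, adjusted p = 0.392). Without male 1-4 Pfkm gave 0.57 and Ppargc1a 0.40. Of the lactate dehydrogenase subunits, Ldhb gave 0.78 (95% interval -0.01 to 1.57) and Ldha -0.10 (95% interval -0.78 to 0.57). The list median was -0.07 in females alone and 0.47 in males alone.

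Circadian clock genes, which glucocorticoids and feeding can reset, were described for 18 of 20, 14 of 18 had 95% intervals within 1 log2 unit of no difference, 0 had an unadjusted p under 0.05 and the median was 0.13. Rora and Npas2, activators of the loop, and Per1, a repressor, gave 0.23 (95% interval -0.48 to 0.94), 0.23 (95% interval -0.30 to 0.77) and 0.21 (95% interval -0.23 to 0.65). Per3 and Ciart were at 0 in all libraries of the 3 regions and had counts in 51 and 50 of 51 hypothalamic ones, so their zeros give no level. Heat shock and chaperone genes had a median of 0.20 over 13 of 16 members and 0 with an unadjusted p under 0.05, and that median was -0.39 in females alone and -0.50 with library weights in limma-voom. Hspa8, the constitutive heat shock chaperone, gave 0.22 (95% interval -0.48 to 0.92), its exchange factor Hsph1 0.36 (95% interval -0.33 to 1.05) and the regulator Hsf1 0.20 (95% interval -0.30 to 0.70), while the inducible Hspa1a and Hspa1b were each seen in at most 3 of the 19 libraries.

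Synaptic receptor genes followed. For ionotropic glutamate receptors 15 of 15 were described, 11 of 15 had 95% intervals within 1 log2 unit of no difference, and the median was -0.09, or 0.15 in females alone and -0.34 in males alone. Gria2, the AMPA subunit that keeps calcium out, ran from 328 to 791 (median 496) in SAL-SAL and from 517 to 932 (median 644) in SAL-LPS (log2 fold change 0.39, SE 0.19, adjusted p = 0.364), the only member with an unadjusted p under 0.05. Gria1 and the NMDA subunits Grin2b and Grin2a gave 0.28 (95% interval -0.18 to 0.75), 0.01 (95% interval -0.44 to 0.45) and 0.17 (95% interval -0.45 to 0.78). All 12 GABA-A receptor subunits were described, with a median of 0.005, or -0.32 in males alone, and 7 of 12 within 1 log2 unit. Gabrg3 and Gabrb1, among the 3 highest in CPM, gave -0.05 (95% interval -0.66 to 0.57) and 0.03 (95% interval -0.39 to 0.45).

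Neuropeptide, opioid and prostaglandin genes had a median of 0.10 over 20 of 21 members and 2 with an unadjusted p under 0.05, both higher (10%). That median was -0.45 in females alone and 0.44 in males alone. Tac2, which encodes neurokinin B, ran from 0 to 2.76 (median 1.95) in SAL-SAL and from 0 to 33.04 (median 6.63) in SAL-LPS (log2 fold change 2.73, SE 0.99, adjusted p = 0.207), and Oprk1, the kappa opioid receptor, ran from 0 to 56.7 (median 20.7) in SAL-SAL and from 19.2 to 121 (median 37.8) in SAL-LPS (log2 fold change 1.00, SE 0.47, adjusted p = 0.344). Penk, the enkephalin precursor that striatal neurons hold in quantity, gave 0.25 (95% interval -0.81 to 1.31), somatostatin 0.01 (95% interval -0.82 to 0.84) and the substance P precursor Tac1 0.62 (95% interval -0.45 to 1.70). Oprm1, the mu opioid receptor, gave 0.08 (95% interval -0.67 to 0.82). Without SAL-LPS female 10-0 Tac2 gave 2.14 (adjusted p = 0.379), and without SAL-LPS male 1-0, low in Slc17a7, Oprk1 gave 0.71 (adjusted p = 0.599).

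**Figure D4:**
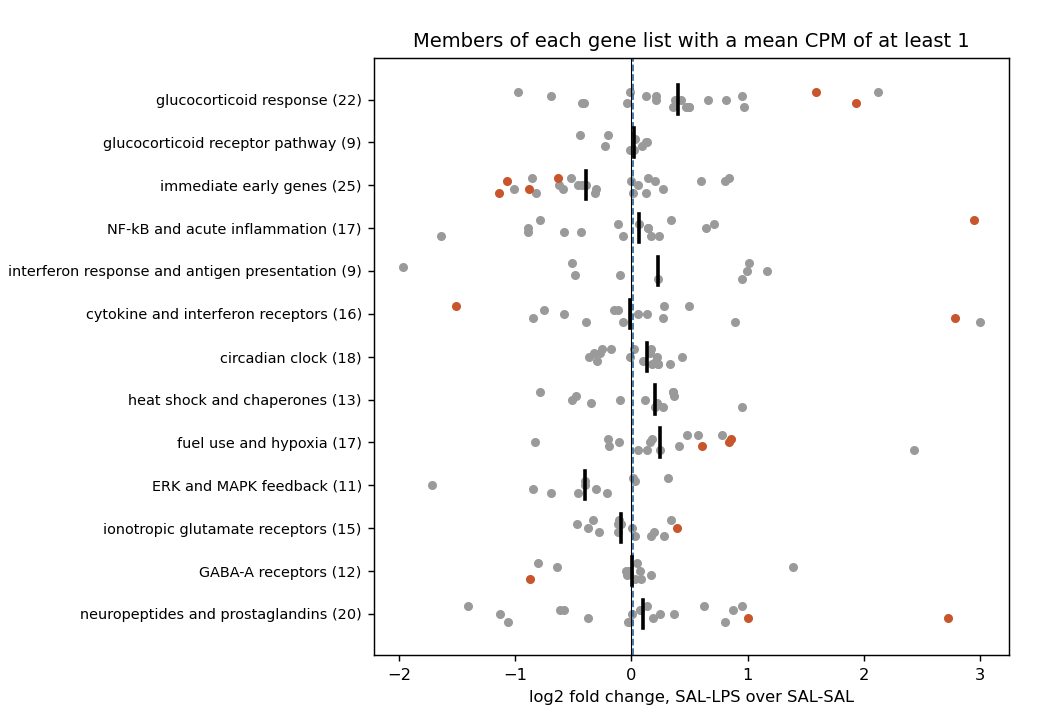
Each point is a described member of 1 of 13 gene lists, placed by its log2 fold change of SAL-LPS over SAL-SAL. Orange points had an unadjusted p under 0.05, black ticks are list medians and the dashed blue line is the median of all described genes. Medians of the immediate early and ERK lists lie left of 0 (-0.39 and -0.40) and that of the glucocorticoid response list to the right (0.40).

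Both sexes were profiled together, and a model with a response for each sex called no gene for a difference between them (0 of 21656, 0%, edgeR, smallest adjusted p 0.228, while 2620 had an unadjusted p under 0.05). Cxxc1 was at 0.96 in females and 2.52 in males (difference adjusted p = 0.342) and Sdc3 at -0.73 and -1.83 (0.405). For the 12 ranked genes the sign was the same in both sexes, and both SAL-LPS libraries low in Slc17a7 were male.

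The same genes were read in PFC libraries of mice exposed to morphine around birth, 14 given LPS (MOR-LPS) and 12 given saline (MOR-SAL), separate animals from the saline-exposed ones. MOR-SAL females 15-2 and 16-3 were also unusually close (correlation of log counts 0.985, chi-square per degree of freedom 5.05). Whether they are separate mice is not settled by the counts. Both were kept as labelled, here and in the fit shared by all 4 groups, and leaving them out was not tested. Between MOR-LPS and MOR-SAL, 887 described genes had an unadjusted p under 0.05 (6.32%). Of 21656 genes 2 were called (0.00924%), Apod and Ptgds, both known from glia and meninges and both higher, with log2 fold changes of 3.88 and 2.703. Neither is among the 12, of which 7 had the same sign as in the saline-exposed mice and 3 had an unadjusted p under 0.05, all with the same sign. Those were Phka2 (0.56), Sf3b1 (0.50) and Saa3 (3.30). Saa3 was at 0 in 8 of 12 MOR-SAL libraries and reached 9.46 normalized CPM in MOR-LPS, where 3 of 14 were at 0. Lcn2 was at 0 in 11 of 12 MOR-SAL and 5 of 14 MOR-LPS libraries (adjusted p = 0.0985). Cdk5rap3, which had the smallest p among the higher genes without morphine, was at 21.3 and 25.2 median normalized CPM (log2 fold change 0.58, adjusted p = 0.425). Srsf6 was at -0.02, with medians of 26.7 in MOR-SAL and 23.2 in MOR-LPS, against 15.2 in SAL-SAL and 32.2 in SAL-LPS.

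The difference between the responses of the exposures was tested directly and called 283 of 21656 genes (1.31%, edgeR), 23 of them described (0.164%). The count was 32 in DESeq2, 2 with litter as a block (Ccnd3 and Olfml1), 0 without SAL-SAL female 9-4, 0 without the libraries rich in Rn18s-rs5 and 1 without those low in Slc17a7 (Olfml1). Of the 12 ranked genes 5 were called in the difference, which includes the contrast that ranked them. Gm21984 was at a median of 2.48 normalized CPM in MOR-SAL and 3.95 in MOR-LPS, and the responses differed by 6.59 log2 units (adjusted p = 0.0443). Cxxc1 was at -0.24 after morphine, a difference of -1.77 (adjusted p = 0.0459). Its median normalized CPM was 25.8 in MOR-SAL and 19.2 in MOR-LPS, against 10.4 in SAL-SAL and 33.3 in SAL-LPS, so the unchallenged groups differed too. The responses of Olfml1 and Adck5 differed by 7.29 and -1.49. Also ranked first were Gm5535 and B020004J07Rik, which reached 1 CPM through 1 group and whose fitted differences rest on an arm near 0 and are no bounds. Gm5535 was at 0 in 8 of 9 SAL-LPS libraries with a SAL-SAL mean of 2.08 normalized CPM, and B020004J07Rik at 0 in 9 of 10 SAL-SAL libraries with a SAL-LPS mean of 4.39. That of Gm21984 likewise rests on 4 SAL-LPS counts. Adck5 had medians of 26.2 normalized CPM in SAL-SAL, 43.6 in SAL-LPS, 45.5 in MOR-SAL and 35.5 in MOR-LPS. It shares exons with 5730521K06Rik on the same strand, so its counts are uncertain. Olfml1, which encodes a secreted olfactomedin-like protein, was at most 45.8 normalized CPM in SAL-SAL, in female 9-4, against a SAL-SAL median of 0.996. Of the 10 oligodendrocyte markers 2 were called, among them Mag, a myelin glycoprotein, at -1.51 without and 1.84 after morphine. The median of their response without morphine was -0.89 with and 0.09 without female 9-4.

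The response was last set against the hippocampus and striatum of saline-exposed mice, in 1 limma-voom fit over 74 libraries of 32 mice, 15 of which gave both PFC and hippocampus and 16 both PFC and striatum. In that fit 158 of 23312 genes were called in PFC (0.678%, 151 of them described, 1.08%), 11 in hippocampus (0.0472%) and 4 in striatum (0.0172%). Here the regions share 1 estimate of the spread, while the median within-group SD of log2(CPM + 1) was 0.9752 in PFC, 0.6013 in hippocampus and 0.4926 in striatum. With a spread for each region the counts were 4, 51 and 13. The 4 in PFC were Gm21984, Sdc3, Prkd2 and Rassf1, all lower, the last 2 outside the naming rule for this comparison. The count was higher in PFC than in the other regions with the shared spread and lower with a spread for each. Among members of the 13 lists, Pfkm alone was called in PFC by the shared-spread fit (log2 fold change 0.80, 95% interval 0.45 to 1.14).

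The difference in response was called for 20 genes between PFC and hippocampus (0.0858%) and for 2 between PFC and striatum (0.00858%). With a spread for each region those were 2 (Srsf6 and Glb1l3) and 1 (Prkd2), and without the PFC libraries low in Slc17a7 they were 65 and 28. Srsf6 was at 1.34 in PFC, -0.34 in hippocampus and -0.06 in striatum, a difference of 1.68 from hippocampus. The other genes named by rank for the hippocampal difference were Col17a1, a transmembrane collagen, at 4.49, Ing3, a subunit of the NuA4 acetyltransferase complex, at 3.21, the hexokinase-like Hkdc1 at -6.51, the protein kinase D2 gene Prkd2 at -3.76 and the Ras effector Rassf1 at -3.25. In PFC, Prkd2 ran from 4.14 to 27.3 normalized CPM in SAL-SAL and from 0 to 7.92 in SAL-LPS, where 3 of 9 were at 0. It differed from striatum by -3.97, and Gm21984 by -5.00. Saa3 had log2 fold changes of 3.46 in PFC (95% interval 1.67 to 5.26), 3.20 in hippocampus (1.68 to 4.72) and 2.74 in striatum (1.36 to 4.12), values that depend on the added pseudocount for so low a gene. The interval of its PFC minus hippocampus difference was -2.09 to 2.62. Siglech was at -3.94, -2.39 and -2.51 in PFC, hippocampus and striatum (adjusted p = 0.0111, 0.268 and 0.578 in limma-voom). Arc was at -1.08, -0.15 and -0.60 in PFC, hippocampus and striatum, and Egr1 at -1.07, 0.22 and -0.70, with no difference between regions called for either.

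**Figure D5:**
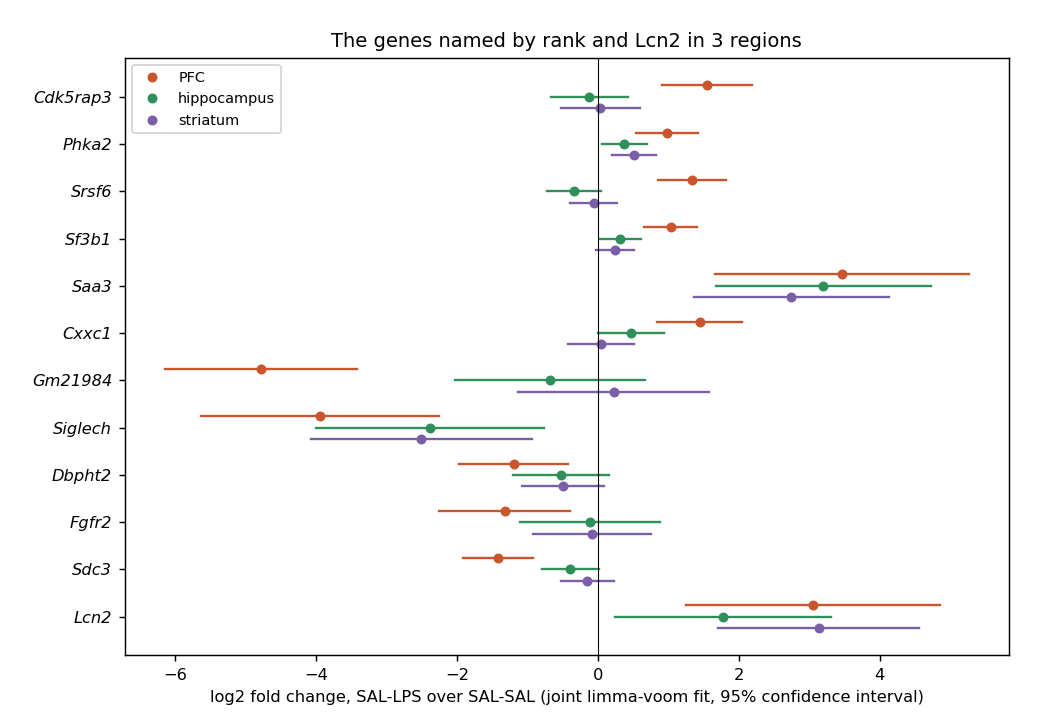
Log2 fold changes of SAL-LPS over SAL-SAL with 95% intervals from the joint limma-voom fit, on the horizontal axis, for the 11 genes named by rank and Lcn2 in PFC (orange), hippocampus (green) and striatum (purple). Intervals of Saa3 and Lcn2 lie above 0 and those of Siglech below 0 in all 3 regions, while Cdk5rap3, Srsf6 and Gm21984 have intervals away from 0 in PFC and across 0 in the other regions. Of these 3, a difference between regions was called for Srsf6 against hippocampus and for Gm21984 against striatum, and for Cdk5rap3 against neither. The values of Saa3, Siglech and Lcn2 depend on the pseudocount.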

How the data were processed

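RNA of sorted NeuN+ nuclei had been sequenced from PFC, hippocampus, striatum and hypothalamus. Hypothalamic counts served only to check genes listed at 0 elsewhere, a check added after the data were seen. Per the labels and the study's methods, the authors trimmed reads with Trim Galore 0.6.7, aligned them to mm10 with STAR 2.7.10a (GENCODE vM25) and deposited raw gene counts, 1 column per mouse. HTSeq 0.12.4 and DESeq2 1.40.2 are also named in the submitters' processing notes. Whether strand was used in counting is not given in the sources used here. Positions come from GENCODE M21 on the same build. No column was left unmapped.

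From the deposited counts, libraries under 0.5 of the median total were dropped and genes with a total of 10 counts or fewer removed, leaving 21656. Total counts per library, 4866542 to 14618761 in these groups, set the precision of low genes. edgeR 4.0.16 (R 4.3.3) fitted all 4 PFC groups with TMM scaling and sex as a covariate, so that they share 1 estimate of the spread, and its quasi-likelihood test was used with Benjamini-Hochberg adjustment over all genes tested, called at 0.05. Intervals and floors from counts cover counting error only. Normalized CPM is CPM with TMM scaling. Differences between regions came from limma 3.58.1 (voom, with the mouse as a block), and DESeq2 1.42.0 was an alternative. The scripts were tested on simulated data.

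As edgeR called no gene with all libraries, the genes named are those with its 6 smallest p values in each direction. Also named are the 3 members of each list highest in CPM and, for differences, the 3 called described genes with the smallest p in each direction. List members with an unadjusted p under 0.05, and genes said to be so, were named after their values were seen. Some items are not reported here. The members and lists were chosen with earlier results of these data known. By the labels each library is 1 mouse. If the number before the dash is the litter, as the study's supplement gives its format, same-numbered mice of the groups share an origin. Deviations from the group means correlated at a median of 0.0169 in 15 same-litter pairs across groups, 5 of them over 0.1, and -0.0125 in 75 pairs of different litters.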

Additional observations from a re-analysis of the deposited data

Results flagged for a closer look

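Some genes had 1 library far from the rest of its group, judged by the gap to the nearest library as a share of the group's range, in normalized CPM. In SAL-SAL male 5-1, which is low in Slc17a7, Cdk5rap3 was at 3.94 (nearest 10.1), Sgk1 at 675 (nearest 242) and Pfkm at 48.6 (nearest 104). Of the other SAL-SAL libraries, female 4-1, also low in Slc17a7, had Ifnar1 at 0.231 (nearest 20.9), female 9-4 had Siglech at 45.6 (nearest 5.35) and female 9-0 had Nfkb1 at 115 (nearest 72.5). SAL-LPS male 1-4 had Stat3 at 4.13 (nearest 33.03), Spred1 at 18.7 (nearest 50.6) and Pfkm at 636 (nearest 261). SAL-LPS female 10-2 had Fgfr2 at 649.8 (nearest 213), and SAL-LPS female 9-1 was the only library of its group with Gm21984, at 0.385 with the other 8 at 0. That is 11 of 100 checks over 50 genes, 11%. Chance flags about 1 in 20 groups where values are normally distributed, and its rate for skewed values such as these was not tested.

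The LPS response differed between exposures for 283 genes (edgeR). The described genes named for it, as the log2 response after morphine minus that after saline, were Gm21984 (6.59), Olfml1 (7.29), Gm5535 (9.41), B020004J07Rik (-8.59), Adck5 (-1.49) and Cxxc1 (-1.77). Those of Gm21984, Gm5535 and B020004J07Rik are fitted values with an arm near 0 and no bounds. B020004J07Rik was at 0 in 6 of 9 SAL-LPS libraries and reached 24.7 normalized CPM in male 1-4.

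Between regions the response differed for 20 genes (PFC minus hippocampus) and 2 genes (PFC minus striatum) in limma-voom. Against hippocampus the log2 differences were 1.68 for Srsf6, 4.49 for Col17a1, 3.21 for Ing3, -6.51 for Hkdc1, -3.76 for Prkd2 and -3.25 for Rassf1, and against striatum -3.97 for Prkd2 and -5.00 for Gm21984.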

How the results depend on the processing

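The alternatives on libraries low in Slc17a7, libraries rich in Rn18s-rs5, the library with the most glial markers, males 1-3 and 3-0, the bias-adjusted fit, limma-voom and a spread for each region were chosen after seeing the data. The count of called genes, 0 in edgeR with 2734 at an unadjusted p under 0.05, was 54 in DESeq2, 158 in the joint limma-voom fit over 3 regions, 23 in limma-voom with library weights, 15 in the bias-adjusted fit, 4 in the joint fit with a spread for each region, 4 without the libraries low in Slc17a7, 4 with the striatal markers as a covariate and 1 each in limma-voom, with the filterByExpr filter and with genes at a mean CPM of at least 1. Leaving out 1 library gave 0 to 2. The cause of these differences was not tested. Of the described genes, 813 had an unadjusted p under 0.05, against 457 with SAL-SAL and SAL-LPS alone in the fit, 1504 in males only, 1523 in the bias-adjusted fit, 1548 with library weights, 2263 in the joint fit, 1387 in it with a spread for each region and 650 to 971 with 1 library left out. For the difference between exposures the 283 became 32 in DESeq2, 2 with litter as a replicate block, 0 without the library with the most glial markers, 0 without the Rn18s-rs5 libraries and 1 without those low in Slc17a7. The 20 genes of PFC minus hippocampus became 11 at a mean CPM of at least 1, 48 without the 4 PFC libraries that were rich in Rn18s-rs5 or glial markers, 65 without those low in Slc17a7 and 2 with a spread for each region, and the 2 of PFC minus striatum became 1, 15, 28 and 1. The difference between sexes stayed at 0 with filterByExpr. With litter as a block the LPS response called 0 genes, as without it, and the block was not run for the differences between sexes or regions. Over 42 alternatives the list medians kept their sign for the immediate early, ERK and glucocorticoid response lists and took both signs for the other 10. Scaling by library size only moved the median log2 fold change of described genes from 0.0172 to 0.14, and the share of higher genes among those with an unadjusted p under 0.05 ran from 33.7% (females only) to 78.2% (library size only) over the alternatives.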
